A study of Homo sapiens with 12 samples.

Results

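Regulators of G-protein signalling (RGS) are the subject of this account, here 10 genes of that family: RGS2, RGS3, RGS4, RGS5, RGS7, RGS10, RGS16, RGS17, RGS19 and RGS20. They were taken by symbol from 58302 genes measured, and 22 RGS genes were counted in all. The members were chosen by their levels and changes over the 4 groups of these same libraries. Their levels and fold changes are therefore given as a description, without p-values, and a call on a member carries no weight as support.

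The cells were NCI-H226, a human mesothelioma line that has lost NF2, an upstream activator of the Hippo kinases, and NCI-H226_CL3, a derivative selected for resistance to a TEAD inhibitor by stepwise increases from 0.25 to 3 µM. Both lines are therefore NF2 null, and resistance is represented by that 1 derived culture. Each was given DMSO, the vehicle, or GNE-7883, an inhibitor of TEAD, the transcription factor family through which YAP and TAZ reach DNA, at a dose and for a time not given in the sources used here. There were 3 libraries in each of the 4 groups: sensitive cells in DMSO, sensitive cells in GNE-7883, resistant cells in DMSO and resistant cells in GNE-7883. Cells in GNE-7883 are called treated below. The labels do not state whether replicate libraries stem from independent cultures, so errors and p-values describe the libraries only and may reflect technical spread.

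A heterotrimeric G protein is switched on when an activated receptor loads its alpha subunit with GTP, and off when the alpha subunit hydrolyses that GTP. RGS proteins speed this hydrolysis through a shared RGS domain, and so shorten the signal. The R4 subfamily (RGS2, RGS3, RGS4, RGS5 and RGS16 here) consists largely of small proteins acting on the Gi/o and Gq classes, the R7 subfamily (RGS7) works as a dimer with the beta subunit GNB5, the R12 subfamily includes RGS10, and the RZ subfamily (RGS17, RGS19 and RGS20) acts on Gz and Gi.

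Totals ran from 31878934 to 46962645 counts per library, so that a count of 0 allows a level of up to 0.0639 to 0.0941 CPM (3 counts, relative to the library total). Sensitive DMSO replicate 2 stood apart from its group, with an SD of its gene-wise log2 deviations of 0.18 against 0.0956 to 0.13 in the 11 other libraries, and results that turn on it are named below. All 8 mesothelial markers (such as MSLN and WT1) reached 1 CPM, with summed levels of 6290 to 7666 CPM in sensitive DMSO, 6210 to 6545 in treated sensitive cells, 2923 to 3361 in resistant DMSO and 3867 to 4249 in treated resistant cells. KRT7 was the largest part of these sums, with group means of 4205, 2818, 2039 and 2619 CPM in that order. In sensitive cells under the drug 5 of the 8 rose and 3 fell, where 58.1% of all genes were called. Markers are counted as reaching 1 CPM by group mean. The lung epithelial marker SFTPB averaged 0.407 CPM in treated sensitive cells, with at most 1.09 in a library. SFTPC, another, had 1 count in sensitive DMSO and 77 in treated sensitive cells. Of the 8 lung epithelial markers 1 reached 1 CPM (CDH1). None of 6 blood and none of 4 neuronal markers did, and CD3E and CD68 were at 0 in every library. Of 5 endothelial markers 2 did (VWF and KDR). The endothelial sums were 49.29 to 63.67 CPM in sensitive DMSO and 180.3 to 196.1 in treated sensitive cells. In resistant cells they were 22.75 to 24.18 CPM in DMSO and 32.07 to 35.27 in GNE-7883. The labels name the tissue as lung epithelial and the cell type as mesothelioma. In bulk RNA, fewer cells with a transcript and less of it per cell cannot be told apart.

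The sequences upstream of RGS4, RGS5, RGS7 and RGS10 are shown because these genes respond to the drug in different directions while RGS4 and RGS5 lie next to each other on chromosome 1. They come from the RefSeq promoter table (GRCh38.p14), which was read by symbol for 9 of the 10 members (RGS20 was not read). These sequences hold no base of an exon that GENCODE release 29 annotates under the same symbol. Each stretch stops at the first such exon base, so those of RGS4 and RGS5 are shorter than 250 bases. For RGS4, RGS5 and RGS10 only the most upstream window read is shown, and for RGS7 the most upstream and the most downstream. The latter, labelled second start, lies inside the gene, between annotated exons. Capitals mark a match to the TEAD motif GGAATG or the AP-1 motif TGANTCA on either strand, and each is written 5′ to 3′ on the strand of the gene.
RGS4, chr1:163068621-163068774, plus strand: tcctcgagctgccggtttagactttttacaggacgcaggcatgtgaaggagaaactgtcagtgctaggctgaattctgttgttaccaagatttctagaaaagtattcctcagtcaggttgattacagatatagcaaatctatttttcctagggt
RGS5, chr1:163321895-163321985, minus strand: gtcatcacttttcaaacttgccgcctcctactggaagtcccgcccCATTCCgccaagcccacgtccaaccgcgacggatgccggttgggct
RGS7, chr1:241357231-241357480, minus strand: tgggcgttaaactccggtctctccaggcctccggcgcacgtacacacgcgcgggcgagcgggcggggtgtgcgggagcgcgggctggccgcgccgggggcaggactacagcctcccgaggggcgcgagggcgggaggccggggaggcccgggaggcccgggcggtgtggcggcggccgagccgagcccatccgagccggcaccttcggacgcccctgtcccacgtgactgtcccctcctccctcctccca
RGS7, second start, chr1:241355827-241356076, minus strand: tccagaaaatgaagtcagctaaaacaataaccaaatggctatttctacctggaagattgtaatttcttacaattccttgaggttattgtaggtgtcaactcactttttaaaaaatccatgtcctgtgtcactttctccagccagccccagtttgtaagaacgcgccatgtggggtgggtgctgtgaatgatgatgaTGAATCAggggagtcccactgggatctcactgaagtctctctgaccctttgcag
RGS10, chr10:119542720-119542969, minus strand: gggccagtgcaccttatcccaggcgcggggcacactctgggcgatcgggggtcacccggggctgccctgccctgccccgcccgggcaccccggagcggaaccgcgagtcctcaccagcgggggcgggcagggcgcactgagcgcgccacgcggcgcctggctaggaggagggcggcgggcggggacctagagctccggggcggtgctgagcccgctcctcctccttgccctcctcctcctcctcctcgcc

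Windows of 250 bases before the RefSeq starts of 9 members numbered 22. Among them the TEAD letters occurred once, in the RGS5 stretch above on the reverse strand (CATTCC, chr1:163321935-163321940). The AP-1 letters occurred once, before the most downstream RGS7 start (chr1:241355874-241355880). Over all 35116 windows of that length in the table, 11.9% held GGAATG and 6.57% held TGANTCA. The core letters of the cyclic AMP response element, TGACG, were found in 21.2% of all windows and, among the members, upstream of RGS2 and before downstream starts of RGS3 and RGS4, where the letters lay inside exons of those genes. TATAAA was found in 10.7% of all windows, and among the members before downstream starts of RGS3, outside its exons, and of RGS4, where it ended 24 bases before the start and inside an exon. The windows differed in composition. The 4 windows before RGS4 starts were 36 to 49.2% G and C with at most 6 CpG sites, whereas the first windows of RGS7 and RGS10 held 77.6% with 34 CpG sites and 77.2% with 26 (median of all windows 58% and 11 sites). Letters of a motif are not evidence of binding, and their absence from a window says nothing of the factor. Gene counts do not tell which start was used.

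RGS4 dominated the family. It lies at chr1:163068775-163076802 on the plus strand and encodes a small R4 protein that acts on Gi/o and Gq alpha subunits. Its TMM-scaled levels were 66.5, 60.6 and 68.0 CPM in sensitive DMSO, 11.6, 10.1 and 16.1 in treated sensitive cells, 855, 768 and 836 in resistant DMSO, and 680.4, 692 and 679 in treated resistant cells. No 2 groups overlapped, and every resistant library stood above every sensitive one. In sensitive cells RGS4 fell under the drug by 2.36 ± 0.12 (SE) on the log2 scale, a 5.13-fold change. In resistant cells the change was -0.26 ± 0.10 and was not called, although the 3 treated libraries lay below the 3 in DMSO. The call appears without sensitive DMSO replicate 2 (-0.26), without sensitive GNE-7883 replicate 3 (-0.26), in a fit of the 2 resistant groups alone (-0.26) and with no filter on low counts (-0.25). Between the lines RGS4 was 12.6-fold higher in resistant cells in DMSO (log2 3.66 ± 0.11) and 53.9-fold higher in GNE-7883 (5.75 ± 0.13). By size of change it had ranks 35 and 10 among genes higher in the resistant cells. The difference of its 2 drug responses, resistant minus sensitive, was 2.10 ± 0.15.

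**Figure D1:**
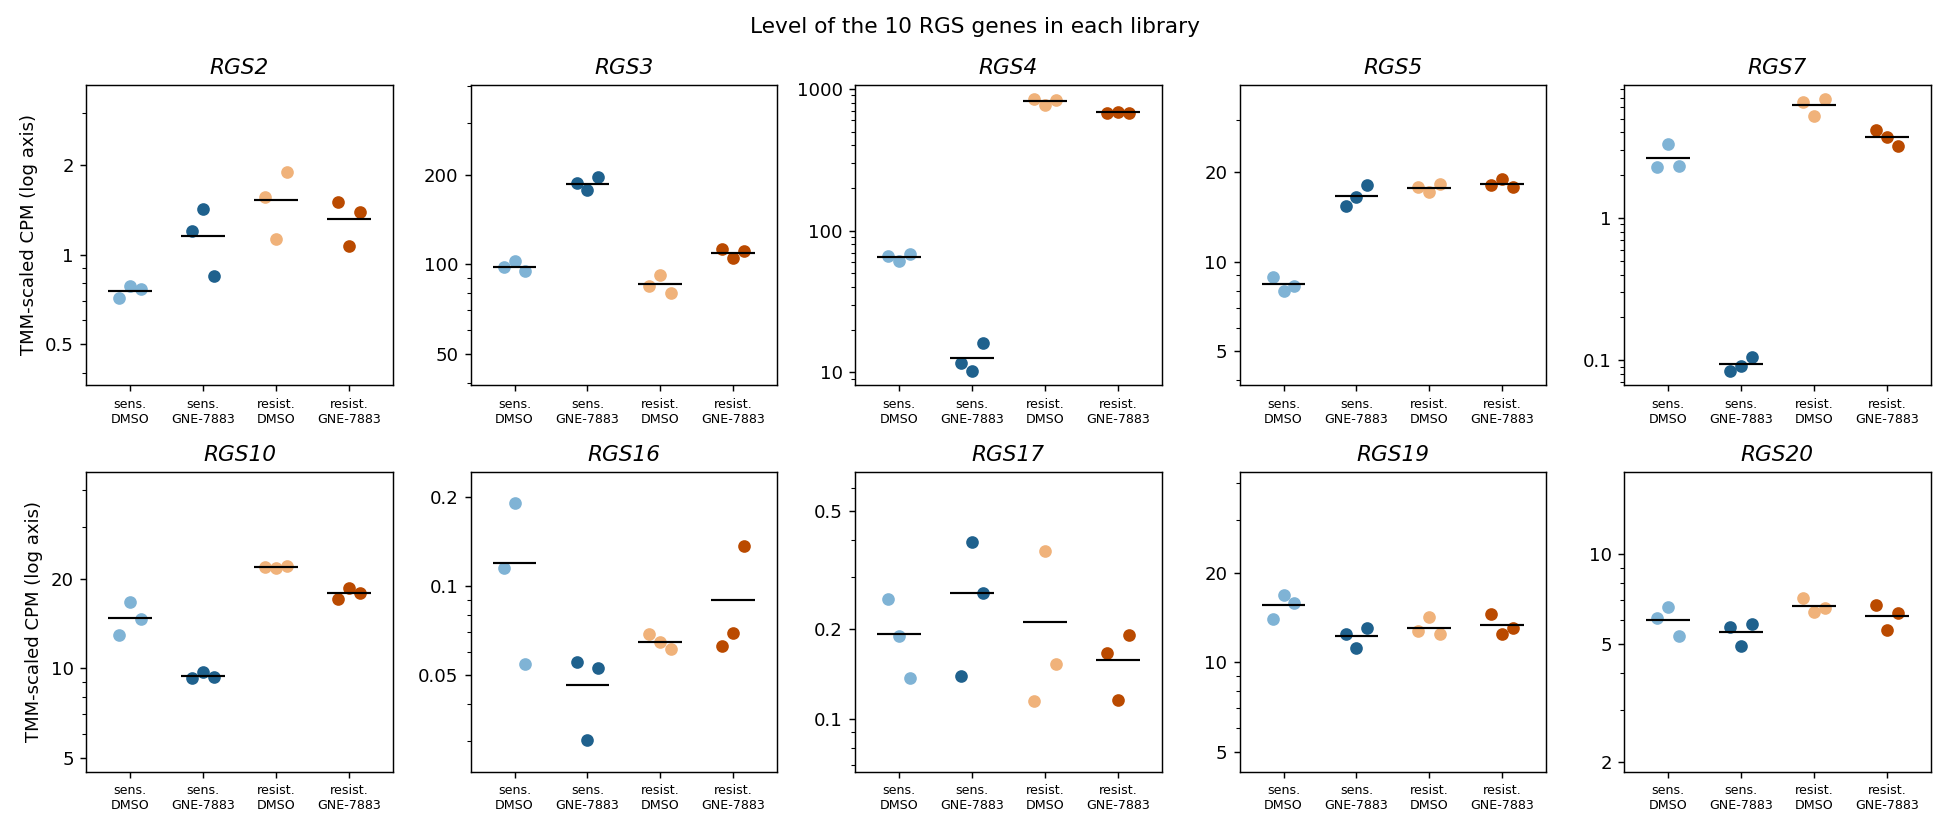
Level of each of the 10 RGS genes in every library, as TMM-scaled CPM on a log axis whose range differs between panels. Points are libraries and bars are group means of 3, for sensitive (blue) and resistant (orange) cells in DMSO (light) or GNE-7883 (dark). RGS4 spans 10.1 to 855 CPM and RGS7 0.0835 to 6.90 CPM, while RGS20 stays between 4.92 and 7.15 CPM.

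Per length, in the RPKM values of the authors, RGS4 was the most abundant RGS transcript in 3 groups and not in the fourth. Its mean was 18.0 ± 0.961 RPKM (SD, n = 3) in sensitive DMSO, ahead of RGS10 at 14.1 ± 1.85 and RGS3 at 12.02 ± 0.543. In sensitive GNE-7883 it was 3.5 ± 0.864, behind RGS3 at 22.9 ± 1.2, RGS10 at 8.97 ± 0.208 and RGS19 at 6.95 ± 0.562. In resistant cells it was 239 ± 14.1 RPKM in DMSO and 199.6 ± 3.6 in GNE-7883, and the next member, RGS10, was at 22.1 ± 0.199 and 17.9 ± 0.885. RGS4 thus made up 28.3% ± 2.72 of the summed RPKM of all 22 RGS genes in sensitive DMSO, 6.49% ± 1.26 in treated sensitive cells, 80.5% ± 1.19 in resistant DMSO and 78.1% ± 0.582 in treated resistant cells. The sum itself was 63.8 ± 3.06, 53.5 ± 2.78, 296.5 ± 13.4 and 255.6 ± 2.83 RPKM in the same order. With RGS4 left out it was 45.8 ± 3.95, 50.03 ± 1.93, 57.6 ± 1.28 and 56.1 ± 0.993, so the remaining 21 genes differed far less. The 10 members held 89.8 to 97.6% of the sum.

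**Figure D2:**
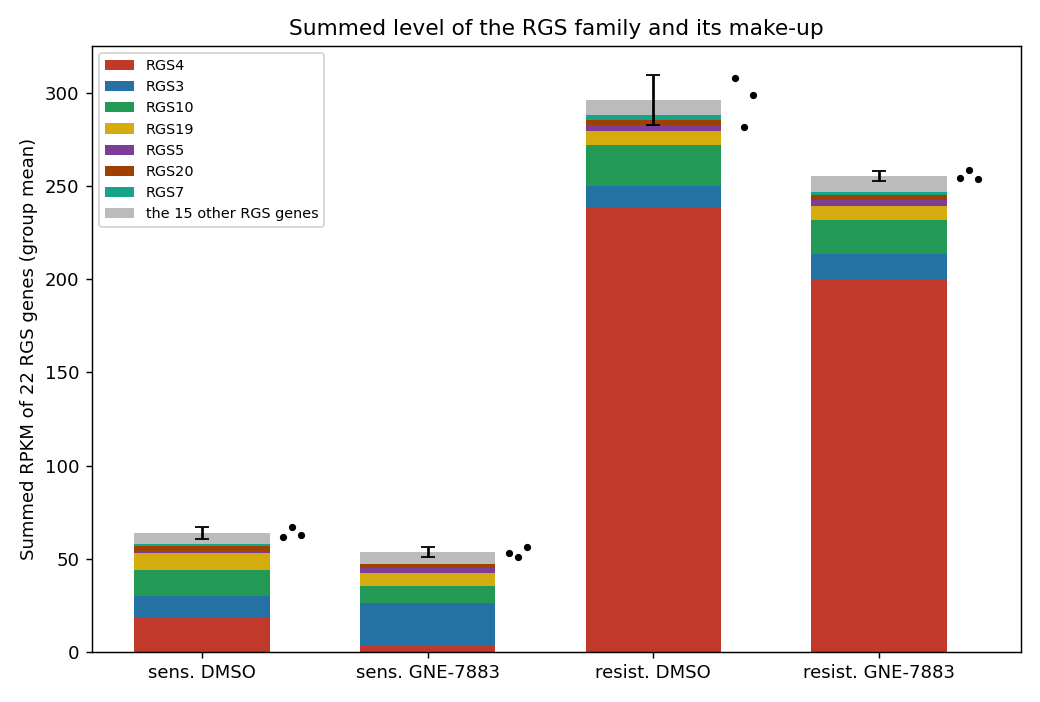
Summed RPKM of 22 RGS genes by group, as stacked means of 3 libraries with error bars of 1 SD on the total and dots for single libraries. The total is 63.8 and 53.5 RPKM in sensitive cells and 296.5 and 255.6 in resistant cells, and RGS4 (red) makes up 80.5% and 78.1% of it in the latter.

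RGS5 lies 34319 bases from RGS4, at chr1:163111121-163321791 on the minus strand. It encodes another R4 protein, known as a marker of pericytes, the contractile cells of small vessels. It measured 8.91, 7.97 and 8.29 CPM in sensitive DMSO, 15.4, 16.6 and 18.1 in treated sensitive cells, 17.8, 17.2 and 18.3 in resistant DMSO, and 18.1, 19.0 and 17.9 in treated resistant cells. Sensitive DMSO was low in all 3 libraries and the 3 other groups overlapped. RGS5 rose by 0.99 ± 0.08 under the drug in sensitive cells, where RGS4 fell, and stood at 0.05 ± 0.07, not called, in resistant cells. In DMSO it was higher in resistant cells by 1.08 ± 0.08. In GNE-7883 the lines differed by 0.14 ± 0.07, which was not called in the edgeR fit but was on the RPKM scale in limma (0.21 with a pseudocount of 0.1, and 0.16 with 1) and without sensitive GNE-7883 replicate 3 (0.21). The difference of its 2 drug responses was -0.95 ± 0.11. Pericyte and smooth muscle markers did not move as one. Their summed levels were 311 to 312 CPM in sensitive DMSO, 213 to 222 in treated sensitive cells, 165 to 171 in resistant DMSO and 166 to 186 in treated resistant cells. Of these 8 markers 5 reached 1 CPM and 6 were tested. In sensitive cells under the drug 1 rose (ACTA2) and 3 fell (PDGFRB, MCAM and CSPG4), and in DMSO 2 were higher (ACTA2 and CSPG4) and 3 lower in resistant cells. ACTA2, a smooth muscle actin, had the RGS5 pattern, at 52.5 ± 4.08 CPM in sensitive DMSO, 71.2 ± 2.4 in treated sensitive cells, 73.5 ± 1.68 in resistant DMSO and 75.5 ± 3.28 in treated resistant cells. PDGFRB, a growth factor receptor, stood at 125.8 ± 5.63, 67.7 ± 2.85, 26.3 ± 1.18 and 32.6 ± 2.9 CPM in the same order. KCNJ8 and ABCC9 were at 0 outside sensitive DMSO, where they had 5 counts and 1 count. RGS5 exons share 534 bases with ENSG00000232995, a noncoding gene annotated under the same symbol and on the same strand, which had 0.439 to 1.10 CPM, so reads from that stretch cannot be told apart.

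HSD17B7, the nearest protein-coding gene tested before RGS4 and 255958 bases away, encodes an enzyme of cholesterol synthesis. It fell by 0.47 ± 0.11 in sensitive cells under the drug (edgeR adjusted p = 0.00172) and stood at 0.01 ± 0.11 in resistant cells (adjusted p = 0.964). The difference of these responses was 0.49 ± 0.16 (adjusted p = 0.0224). Between the lines HSD17B7 was higher in resistant cells in GNE-7883 by 0.28 ± 0.11 (adjusted p = 0.0386), while the difference in DMSO, -0.21 ± 0.11, was not called (adjusted p = 0.128).

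RGS3, at chr9:113444731-113597743 on the plus strand, encodes an R4 protein made in several lengths. It measured 97.8, 102 and 94.8 CPM in sensitive DMSO, 187, 177 and 197 in treated sensitive cells, 84.9, 92.4 and 80.2 in resistant DMSO, and 113, 105 and 111 in treated resistant cells. No 2 groups overlapped, and sensitive cells in the drug were the highest. RGS3 rose under GNE-7883 by 0.93 ± 0.06 in sensitive and 0.35 ± 0.06 in resistant cells, a difference of -0.58 ± 0.09. It was lower in resistant cells by -0.77 ± 0.06 in GNE-7883. In DMSO it was lower by -0.20 ± 0.06, a call that ends without resistant DMSO replicate 3 (-0.16) and in limma on RPKM (-0.12 with a pseudocount of 0.1, and -0.11 with 1). Its share of the summed RGS RPKM was 42.7% ± 0.249 in treated sensitive cells and 3.73% ± 0.412 in resistant DMSO.

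RGS2, at chr1:192809039-192812283, encodes an R4 protein with a preference for Gq. It was scarce, with 0.712, 0.785 and 0.766 CPM in sensitive DMSO, 1.196, 1.42 and 0.849 in treated sensitive cells, 1.56, 1.13 and 1.90 in resistant DMSO, and 1.504, 1.06 and 1.39 in treated resistant cells. All 3 sensitive DMSO libraries were below the 9 others, which overlapped. Resistant cells were higher in DMSO by 0.99 ± 0.23. The rise of 0.60 ± 0.25 in sensitive cells under the drug was called, but the call ends in DESeq2 (0.61), with DESeq2 size factors (0.60), with no filter (0.56), in the 2 sensitive groups alone (0.59), in limma with a pseudocount of 1 (0.24) and when any of 10 single libraries is left out (0.43 to 0.63). Sensitive DMSO replicate 2 is 1 of these 10 libraries (0.63). RGS16, at chr1:182598623-182604408, the remaining R4 member, had 15, 5, 8 and 11 counts summed over the 3 libraries of each group in the order above. It did not pass the low-count filter and was not tested, and its ratio between sensitive groups, 0.381 (95% exact interval 0.108 to 1.10), covers counting error only.

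RGS7 showed the largest relative change under the drug of the 9 members tested. It spans chr1:240775515-241357230 on the minus strand, and its protein is known mainly from neurons, where it acts on Gi/o as a dimer with GNB5. It measured 2.27, 3.31 and 2.33 CPM in sensitive DMSO, 0.0835, 0.0906 and 0.106 in treated sensitive cells, 6.58, 5.24 and 6.90 in resistant DMSO, and 4.18, 3.71 and 3.22 in treated resistant cells. Sensitive cells in the drug were near the limit of 3 counts in every library, while resistant cells in the drug overlapped sensitive cells in DMSO. The counts summed to 323 in sensitive DMSO and 10 in treated sensitive cells, a ratio of 28.2 (95% exact interval 15.2 to 59.5, counting error only). In the fit RGS7 fell by 4.77 ± 0.32, rank 5 among genes lower under the drug, a value that depends on the prior count at so low a level. In resistant cells RGS7 fell by 0.74 ± 0.14, and the 2 responses differed by 4.03 ± 0.38. Resistant cells were higher by 1.23 ± 0.15 in DMSO. In GNE-7883 the summed counts were 478 against 10, a ratio of 39.9 (21.5 to 83.9), with a fitted change of 5.27 ± 0.30.

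Neuronal markers were summed at 0.809 to 1.06 CPM in sensitive DMSO and 0.902 to 1.47 in treated sensitive cells, against 0.996 to 1.47 and 1.09 to 1.56 in resistant cells, none reaching 1 CPM on its own. GNB5, the beta subunit that RGS7 needs for stability, was at 37.4 ± 1.13, 38.5 ± 1.94, 39.1 ± 1.21 and 39.2 ± 1.32 CPM in the order of groups above. None of its 5 comparisons was called (edgeR adjusted p = 0.373 to 0.981). RGS7BP, the membrane anchor of the R7 dimer, had 4 counts in all, and GPR158, an orphan receptor that binds the same dimer, did not pass the filter. Of the 5 partner genes 3 were tested, and 1 call was made in any comparison: GPR179, the retinal receptor of that family, rose in sensitive cells by 1.16 ± 0.38 at group means of 0.245 to 0.553 CPM (adjusted p = 0.0169). FH, fumarate hydratase, 140373 bases beyond RGS7, fell by 0.62 ± 0.07 in sensitive cells under the drug (adjusted p = 1.5e-06) and was higher in resistant cells in GNE-7883 by 0.42 ± 0.07 (adjusted p = 7.48e-05), with no call between the lines in DMSO (-0.06 ± 0.07, adjusted p = 0.478). RGS7 exons share 240 bases with the antisense transcript ENSG00000226919, which had 25, 1, 19 and 21 counts in the 4 groups.

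RGS10, at chr10:119499828-119542708 on the minus strand, encodes one of the smallest RGS proteins, known in microglia and other immune cells. It measured 12.9, 16.7 and 14.7 CPM in sensitive DMSO, 9.29, 9.70 and 9.34 in treated sensitive cells, 22.02, 21.9 and 22.2 in resistant DMSO, and 17.1, 18.6 and 17.9 in treated resistant cells. No 2 groups overlapped, and the order of the groups was that of RGS4. RGS10 fell under the drug by 0.65 ± 0.09 in sensitive cells and by 0.30 ± 0.08 in resistant cells. It was higher in resistant cells by 0.58 ± 0.08 in DMSO and 0.92 ± 0.09 in GNE-7883. The call in resistant cells under the drug ends without resistant DMSO replicate 1 (-0.29), 2 (-0.31) or 3 (-0.28), and without resistant GNE-7883 replicate 1 (-0.26) or 3 (-0.29). The difference of the responses, 0.35 ± 0.12, ends as a call without sensitive DMSO replicate 2 (0.25) and without sensitive GNE-7883 replicate 1 or 3 (0.34 each). Blood markers summed to at most 0.219 CPM in any library. The 2 genes that flank RGS10 moved in opposite directions in sensitive cells under the drug. TIAL1, which encodes an RNA-binding protein and lies 29094 bases away, fell with RGS10 in both lines, by 0.27 ± 0.05 in sensitive cells (adjusted p = 0.000457) and by 0.19 ± 0.05 in resistant cells (adjusted p = 0.0407). GRK5, a receptor kinase that itself carries an RGS domain, 40086 bases away, rose in sensitive cells by 0.60 ± 0.11 (adjusted p = 0.000175) and stood at 0.28 ± 0.10 in resistant cells, not called (adjusted p = 0.102).

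Of the RZ members RGS19 and RGS20 spanned narrow ranges. RGS19, at chr20:64073181-64079988, is also known as GAIP. It measured 14.0, 16.8 and 15.8 CPM in sensitive DMSO, 12.4, 11.2 and 13.1 in treated sensitive cells, 12.7, 14.2 and 12.4 in resistant DMSO, and 14.5, 12.5 and 13.1 in treated resistant cells. Sensitive DMSO stood above sensitive GNE-7883 without overlap, and RGS19 fell there by 0.35 ± 0.09. In resistant cells its change was 0.03 ± 0.09, not called. It was lower in resistant cells in DMSO by -0.24 ± 0.09, with overlapping libraries. That call ends without sensitive DMSO replicate 2 (-0.18) or 3 (-0.23), without resistant DMSO replicate 1 (-0.23) or 3 (-0.22), in the 2 DMSO groups alone (-0.26) and in limma on RPKM (-0.17 and -0.15). The difference of the responses, 0.37 ± 0.13, ends as a call without sensitive DMSO replicate 3 (0.37), sensitive GNE-7883 replicate 1 (0.39) or 2 (0.32), or resistant GNE-7883 replicate 1 (0.35).

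RGS20, a brain-enriched regulator of Gz, had group means of 6.01 ± 0.667, 5.48 ± 0.487, 6.72 ± 0.385 and 6.22 ± 0.607 CPM, which overlapped in all 4 comparisons of 2 groups. Its changes, -0.13 ± 0.11, -0.11 ± 0.11, 0.16 ± 0.11 and 0.18 ± 0.11, were not called. Without resistant GNE-7883 replicate 2, the last was 0.28 and called. RGS17, at chr6:153004459-153131249, had 24, 28, 27 and 20 counts summed by group and no call, with standard errors of 0.48 to 0.51 in the 4 comparisons of 2 groups. Changes within such errors were not detectable at this depth.

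GNAZ, the alpha subunit that RZ proteins act on, was at 14.9 ± 0.845 CPM in sensitive DMSO, 6.39 ± 0.416 in treated sensitive cells, 13.8 ± 1.22 in resistant DMSO and 13.3 ± 0.806 in treated resistant cells, so the treated sensitive libraries stood alone. It fell by 1.22 ± 0.09 in sensitive cells (adjusted p = 1.15e-08) and stood at -0.05 ± 0.08 in resistant cells (adjusted p = 0.798). The test of the difference gave 1.17 ± 0.12 (adjusted p = 2.4e-06).

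**Figure D3:**
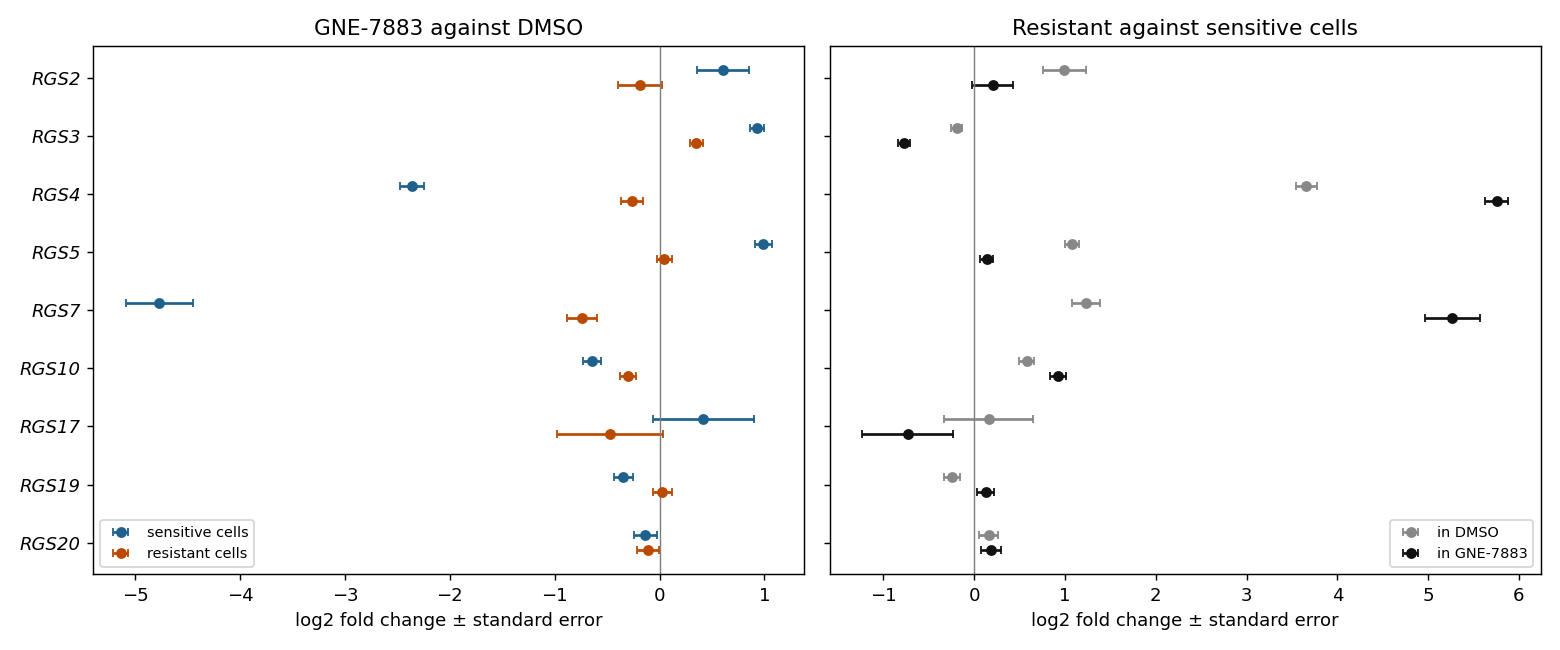
Log2 fold change with its standard error for the 9 RGS genes tested, for the drug in each line (left, sensitive blue, resistant orange) and for resistant against sensitive cells (right, in DMSO grey, in GNE-7883 black). RGS7 and RGS4 lie at -4.77 and -2.36 in sensitive cells under the drug and at 5.27 and 5.75 between the lines in GNE-7883, while RGS20 lies within 0.2 of 0 in all 4.

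Counted over the 9 members tested, 3 rose and 4 fell in sensitive cells under GNE-7883, where 58.1% of all 18035 genes tested were called. In resistant cells 1 rose and 2 fell, against 9.22% of genes. The total of called genes there, 1663, is 3060 without sensitive DMSO replicate 2, 861 and 950 without resistant DMSO replicates 1 and 3, and 984 and 854 without resistant GNE-7883 replicates 1 and 3. Between the lines 5 were higher and 2 lower in resistant cells in DMSO (48.7% of genes called), and 3 higher and 1 lower in GNE-7883 (61.9%). The difference of the responses was called for 6, of which 4 were positive and 2 negative (35.7%). Since the members were selected on these contrasts, nothing is read from those counts. Their median log2 changes in the same order were -0.13, -0.19, 0.58, 0.18 and 0.02, against 0.02, -0.00, -0.00, -0.01 and -0.01 over all genes.

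Across the 12 libraries, which form 4 groups and share their depth, RGS7 and RGS10 ran together (Pearson r = 0.974 of log2 levels), as did RGS4 with RGS10 (0.942) and with RGS7 (0.915). RGS3 ran against RGS7 (-0.956) and RGS10 (-0.903), and RGS5 bore no linear relation to RGS7 (0.00239). Among 10580 other protein-coding genes of at least 5 CPM, those most like RGS4 were STAU2 (0.998), GPX8 (0.998) and DKK1 (0.997), and 606 genes exceeded 0.95. ODC1, PSMD2 and PAK1IP1 were most like RGS7 (0.995 each, with 786 genes above 0.95). REPS1 (0.993), CHCHD3 (0.991) and GADD45A (0.990) were most like RGS10, with 466. CD82 (0.996), PTK2B (0.994) and PTPRH (0.993) were most like RGS3, with 294.

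Of the 12 other RGS genes 3 passed the filter. RGS11, an R7 gene, rose in sensitive cells under the drug (0.40 ± 0.15, edgeR adjusted p = 0.0305) and was higher in resistant cells in DMSO (0.40 ± 0.14, adjusted p = 0.0308). Its exons overlap those of FAM234A, ARHGDIG and AC004754.1, so its counts are uncertain without strand. RGS14, of the R12 subfamily, was higher in resistant cells in GNE-7883 (0.59 ± 0.12, adjusted p = 0.00056), and RGS12 had no call (7.96 to 9.62 CPM). RGS18, an R4 gene known from platelets, did not pass the filter. It had 1 count in sensitive DMSO, 0 in treated sensitive cells, 47 in resistant DMSO and 24 in treated resistant cells, and the ratio of the DMSO groups was 46.9 (95% exact interval 8.01 to 1890, counting error only). RGS8 had 15 and 2 counts in the sensitive groups and 0 in the resistant ones. RGS1, RGS13, RGS21 and RGSL1 had 0 counts in all 12 libraries.

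Among alpha subunits, GNAQ, which R4 proteins regulate, was at 64.2 ± 11.4 and 65.8 ± 4.5 CPM in sensitive and 141.9 ± 8.96 and 134 ± 4.59 in resistant cells, DMSO first. It was higher in resistant cells by 1.15 ± 0.10 in DMSO (adjusted p = 1.21e-07) and 1.03 ± 0.10 in GNE-7883 (adjusted p = 2.18e-07), with no call for the drug in either line. GNA12 was also higher, by 0.76 ± 0.05, and GNAS, the Gs subunit, was lower, by -0.56 ± 0.05, in DMSO. Of 5 Gi/o/z subunits tested, 1 rose and 3 fell in sensitive cells under the drug, and 0 of 5 were called in resistant cells by edgeR, by DESeq2, by limma or at an unadjusted p under 0.05. Of 10 beta and gamma subunits, 1 rose and 7 fell in sensitive cells, and among those of at least 1 CPM the largest fall was that of GNB4 (-1.03 ± 0.10). GNB3 and GNGT2, both under 1 CPM in every group, fell further: GNB3 by 1.44 ± 0.46, and GNGT2 from 47 summed counts to 1 count, too few for a stable fold. In resistant cells 0 of the 10 were called by edgeR, 2 had an unadjusted p under 0.05, DESeq2 called 1 and limma 0. These counts stand against the 58.1% and 9.22% of all genes called.

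The effector phospholipases C split. In sensitive cells under the drug PLCB1 rose by 1.62 ± 0.10 (adjusted p = 1.39e-09) and PLCB4 fell by 1.73 ± 0.09 (adjusted p = 2.76e-10). In resistant cells the same genes moved by 0.36 ± 0.10 (adjusted p = 0.0362) and -0.49 ± 0.09 (adjusted p = 0.002). PLCB2 was at 21.6 ± 0.45 CPM in sensitive and 2.89 ± 0.355 in resistant DMSO (-2.89 ± 0.10, adjusted p = 9.23e-13). All 10 effectors tested were called in sensitive cells (4 rose, 6 fell) and 2 in resistant cells (1 rose, 1 fell), against 58.1% and 9.22% of all genes.

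Of 35 receptors listed 23 were tested, of which 8 rose and 7 fell in sensitive cells under the drug and 4 rose and 4 fell in resistant cells, where 58.1% and 9.22% of all genes were called. The sphingosine phosphate receptor S1PR1 had the RGS4 order of groups, at 29.2 ± 1.69, 12.3 ± 0.92, 57.9 ± 1.9 and 47.9 ± 2.11 CPM, and was higher in resistant cells in GNE-7883 by 1.96 ± 0.07 (adjusted p = 1.4e-12). The lysophosphatidic acid receptor LPAR1 rose in sensitive cells by 0.86 ± 0.08 (adjusted p = 1.77e-07) and fell in resistant cells by 0.39 ± 0.08 (adjusted p = 0.00456), a difference of -1.24 ± 0.11 (adjusted p = 4.39e-07). LPAR5 was lower in resistant cells in DMSO by -2.72 ± 0.09, at 32.5 against 4.90 CPM. Among other proteins with an RGS domain, AXIN2, a Wnt feedback scaffold, rose in sensitive cells (0.92 ± 0.12) and was lower in resistant cells in GNE-7883 (-2.79 ± 0.14). Of these 14 genes 8 rose and 4 fell in sensitive cells, and 0 were called by edgeR, DESeq2 or limma in resistant cells, where 2 had an unadjusted p under 0.05 in edgeR. The share of all genes called was 58.1% in sensitive and 9.22% in resistant cells. ARRB1, a beta-arrestin, rose in both lines (0.88 ± 0.08 and 0.54 ± 0.09).

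Of 11 cyclic AMP and calcium response genes tested, 3 were higher and 4 lower in resistant cells in DMSO, where 48.7% of all genes were called. RCAN1, a calcineurin feedback inhibitor induced by calcium, was at 32.6 ± 1.25 and 30.4 ± 0.0879 CPM in sensitive and 121.7 ± 3.27 and 74.2 ± 1.5 in resistant cells, DMSO first. It was higher in resistant cells by 1.90 ± 0.05 in DMSO (adjusted p = 1.54e-13) and fell there under the drug by 0.71 ± 0.05 (adjusted p = 4.19e-07). NFATC2, a transcription factor that calcineurin activates, rose in sensitive cells by 1.28 ± 0.11 and was lower in resistant cells in DMSO by -1.04 ± 0.12.

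**Figure D4:**
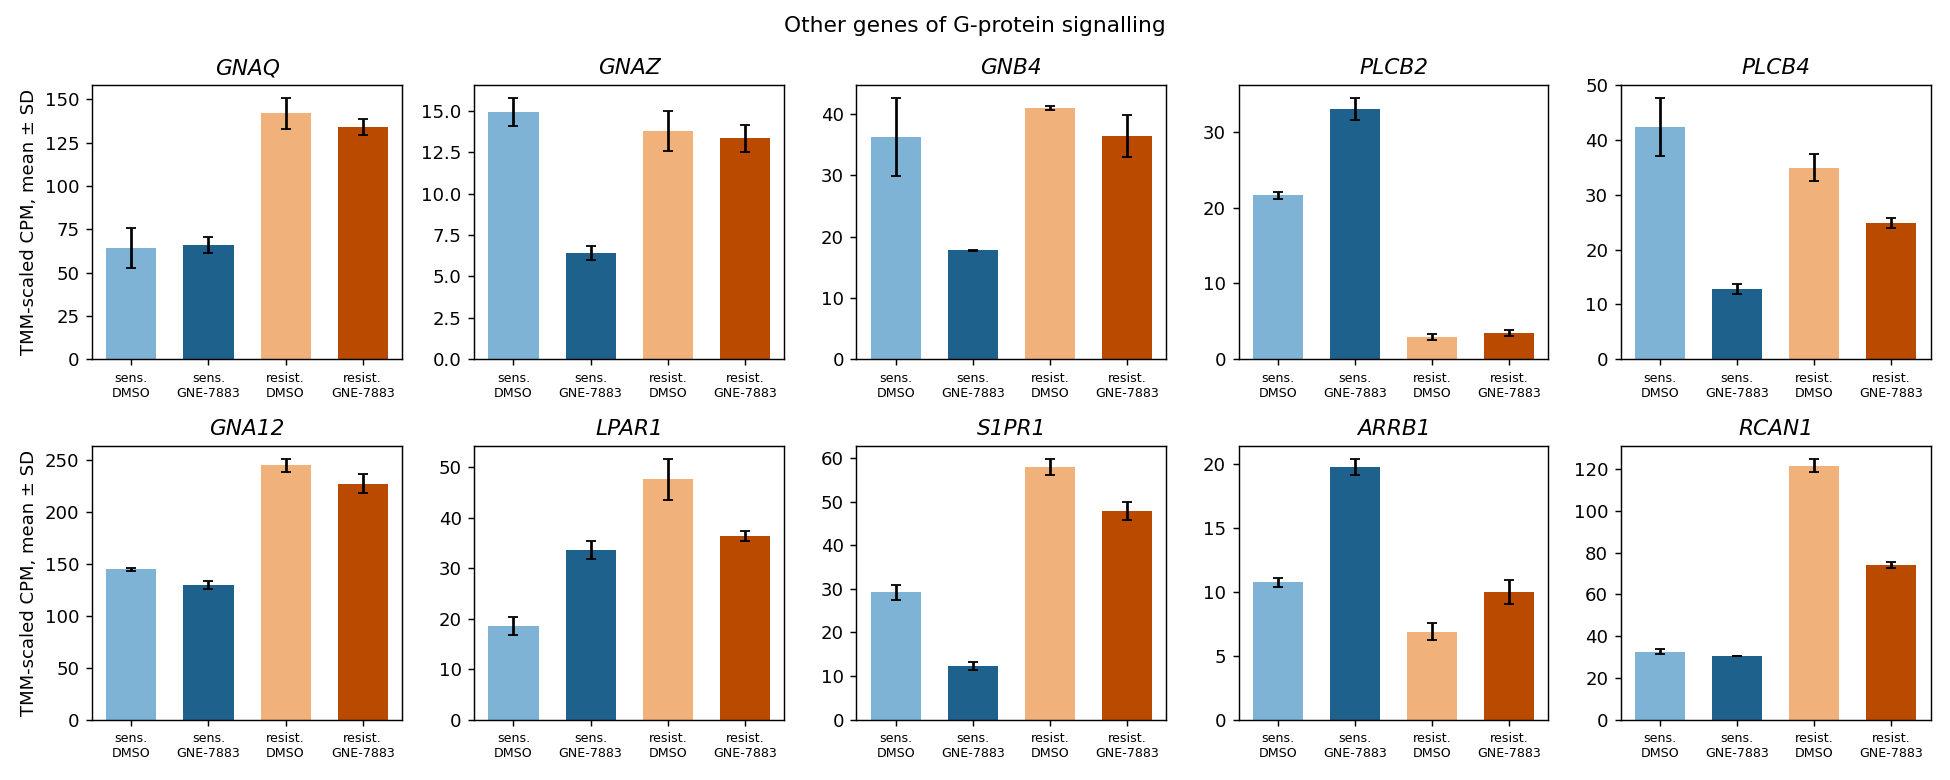
Levels of 10 other genes of G-protein signalling, as mean TMM-scaled CPM of 3 libraries with error bars of 1 SD, on linear axes that start at 0 and differ between panels. GNAQ stands at 64.2 and 65.8 CPM in sensitive and 141.9 and 134 in resistant cells, and S1PR1 is lowest in sensitive cells in GNE-7883, at 12.3 CPM.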

How the data were processed

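Libraries were single-end and unstranded (TruSeq RNA v2). Per the submitters' processing notes, GSNAP, limma and the build GRCh38.p10 were used, and counting tool and annotation release are unstated. The authors deposited whole-number read counts per Ensembl gene, without normalization, and a matching table of RPKM.

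Counts were scaled by TMM and tested with edgeR 4.0.16 (R 4.3.3) by quasi-likelihood over all 12 libraries, with 1 mean per group, 8 residual degrees of freedom, the filterByExpr filter (18035 genes kept) and Benjamini-Hochberg adjustment within each of the 5 comparisons. Calls, and the words rose and fell, need a two-sided adjusted p under 0.05. The standard error given with a log2 change was not estimated directly. It is the size of the change divided by the square root of its quasi-likelihood F statistic. Levels are TMM-scaled CPM, and RPKM served for levels between genes. The deposited RPKM are not TMM-scaled. TMM factors were 0.9688 to 0.9821 in sensitive and 1.02 to 1.037 in resistant libraries. Values on the RPKM scale, limma included, therefore differ from the CPM in library scaling as well, which shifts comparisons between the lines. DESeq2 1.42.0, limma 3.58.1 on log2(RPKM + 0.1) or log2(RPKM + 1), other filters and scaling, and leaving out libraries were alternatives. The script was tested on simulated data.

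Members and gene lists were chosen with earlier results of these data known. Named list genes come from those called with the largest changes that reached 1 CPM in either group, but only some of these are named. Receptors that the rule picked and the text leaves out include CHRM3, ADRA1B, F2R and F2RL2. GPR179, GNGT2, GNB3, KRT7 and the pericyte and endothelial markers fall outside that rule and were named after their values were seen. GNB5, RGS7BP, GPR158 and the other cell type markers named fall outside it too. Likeness used log2(CPM + 0.5). Symbols matched 58039 gene identifiers, and coordinates are GENCODE release 29 on GRCh38. Protein identity between members was not analysed here. One gene next to the members is not reported here.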

Additional observations from a re-analysis of the deposited data

Results flagged for a closer look

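The difference between the lines in the response to GNE-7883 was called for 6 of the 9 members tested, which is given as a description only. The values, resistant minus sensitive on the log2 scale, were 4.03 for RGS7, 2.10 for RGS4, 0.37 for RGS19, 0.35 for RGS10, -0.58 for RGS3 and -0.95 for RGS5. Leaving out each of the 12 libraries in turn kept the call for RGS10 in 9 fits and for RGS19 in 8. Over all genes 35.7% had such a difference, and the members were chosen with these values known.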

How the results depend on the processing

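Of 877 values of the members under an alternative, 821 kept their direction and their side of the threshold, 40 lost a call, 10 gained one and 6 changed sign. All 6 concern changes that were never called and come from leaving out 1 library: RGS17 in resistant cells under the drug (-0.79 to 0.25), RGS17 between lines in DMSO (-0.57 to 0.47), RGS19 in resistant cells under the drug (-0.026 to 0.090) and the difference of responses of RGS20 (-0.045 to 0.13). The RGS20 difference is negative without sensitive DMSO replicate 2 (-0.045) or sensitive GNE-7883 replicate 2 (-0.041). Leaving out single libraries gave 854 to 3060 called genes in the resistant drug comparison (1663 with all). The counts of members called stayed within 1.5 times.

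The gene-wise deviations of same-numbered replicates had correlations from -0.274 to 0.326. Between the lines in DMSO they were 0.0171, 0.326 and 0.251 for replicates 1, 2 and 3. Replicates of unlike number were not compared, so whether the numbers pair the libraries was not tested. With the replicate block, the calls on RGS2 in sensitive cells under the drug (0.60), RGS19 between lines in DMSO (-0.24) and the RGS19 difference (0.37) were lost. The fit of only the groups compared does not apply to the difference. RGS16 and RGS17 are limited by depth.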
